A study of Mus musculus with 6 samples.

Results

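The secretoglobin genes described here are the 6 rows of the authors' table with the symbols Scgb2b17, Scgb2b7, Scgb2b27, Scgb2b4-ps, Scgb1b20 and Scgb1b7, out of 632 listed genes. No other symbol in the table starts with Scgb. The table came from RNA of prostate epithelial cells that had been sorted by flow cytometry from C57BL/6 mice aged 3 months, with 3 control libraries and 3 libraries from E-cadherin conditional knockout mice. The series describes the controls as littermates of the knockout animals. The Cre line, the excised part of the gene and the sorting marker were not stated by any source used here. Values are taken as FPKM, a fragment count per transcript length and sequencing yield, although the header names no unit. Levels in this unit can be set side by side between genes, within the limit set by fragments that match near-identical copies. The sign ± marks the SD over n = 3 libraries. The listed genes had been selected on the contrast of these same libraries and the secretoglobin rows were chosen from that list. Their differences between groups are therefore a description, given without a test, and a two-sided exact permutation test on 3 against 3 libraries could not go below p = 0.1 in any case.

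Secretoglobins are small secreted proteins of glands and mucosal surfaces that work as dimers. In the mouse, the Scgb1b genes encode the alpha subunits and the Scgb2b genes the beta and gamma subunits of the androgen-binding proteins, in which an alpha chain is disulfide-linked to a beta or gamma chain. These proteins are best known from saliva and tears, where they have been linked to recognition between mice, and they take their name from binding steroid hormones. Their genes lie in a large cluster in which an alpha gene and a beta-gamma gene usually face away from each other as a pair.

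All 6 secretoglobin genes had a lower mean in the knockout libraries, both subunit classes included, as had 28.8% of all listed genes. The summed level was 207, 112 and 108 FPKM in control libraries 1, 2 and 3, and 48.6, 29.99 and 8.22 FPKM in knockout libraries 1, 2 and 3. The lowest control sum was thus above the highest knockout sum. The ratio of the group means of the sum was 4.92. It was 7.46 without knockout replicate 1 and 3.63 without knockout replicate 3. For 5 of the 6 genes the groups did not overlap, a pattern that 15.7% of all listed genes showed in this direction. All 6 were at least 2-fold lower, as were 4.11% of the listed genes, and 5 of the 6 were both at least 2-fold lower and free of overlap, against 1.9% of the list. Because the list was selected on this contrast, nothing is read from these shares.

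The annotation placed the 6 genes in 1 cluster on chromosome 7. GENCODE M21 (GRCm38) has 64 Scgb1b and Scgb2b gene models between positions 31255891 and 34100837 of that chromosome, of which 29 are coding. Of the 64, 5 coding genes and 1 pseudogene were listed. The other 24 coding models were not listed, so their levels are not known here. Among the Scgb1b models 28 of 31 lie on the plus strand, and among the Scgb2b models 31 of 33 lie on the minus strand. Each of the 6 listed genes faces away from its nearest model of the other subunit class, with 6.50 to 7.54 kb between the 5′ ends. Scgb2b7 (chromosome 7, 31703779 to 31705757, minus strand) and Scgb1b7 (31712665 to 31713978, plus strand) form the only such pair with both genes listed, and their 5′ ends are 6.91 kb apart. Scgb2b4-ps (31401034 to 31403176) is annotated as an unprocessed pseudogene, and its partner model is a pseudogene too. Scgb2b17 (33054582 to 33056561) and Scgb2b27 (34011921 to 34013942) lie on the minus strand and Scgb1b20 (33373234 to 33374559) on the plus strand. No coding model from outside the Scgb family and no other listed gene lies between the outermost of the 6 genes, a distance of 2613 kb.

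**Figure D1:**
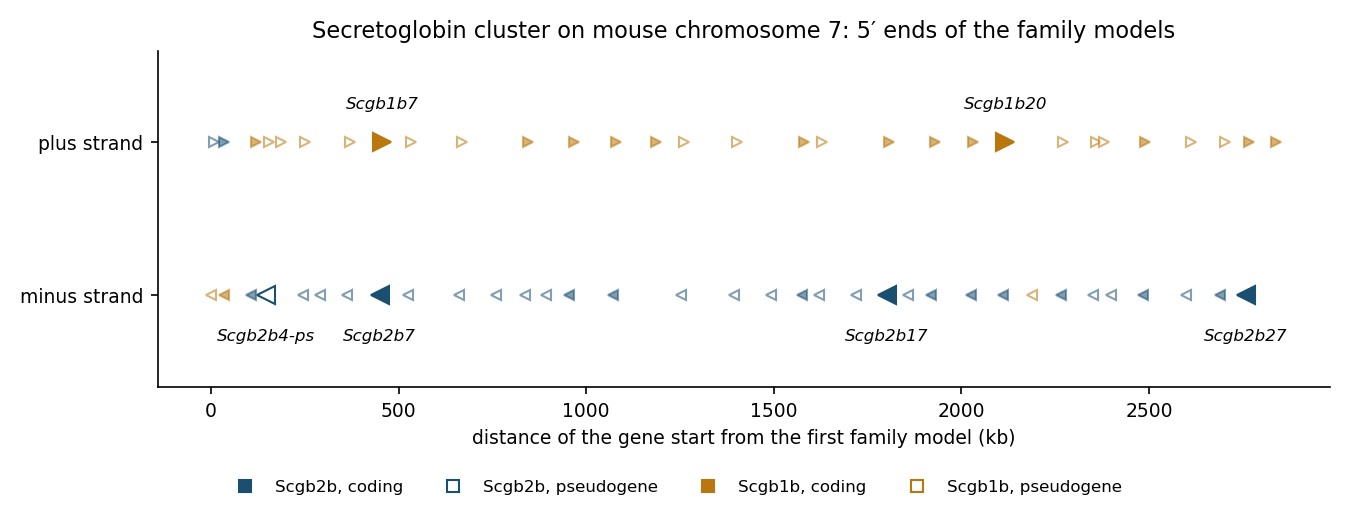
Position of the 5′ end of each Scgb1b and Scgb2b gene model along the cluster, in kb from the start of the first model, by strand. Blue marks Scgb2b, orange Scgb1b, open symbols pseudogenes, and the large named symbols are the 6 listed genes, which are spread over 2613 kb.

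The sequences upstream of the Scgb2b genes are shown because these genes were low together and their promoters resemble each other. The RefSeq table of GRCm38.p6 held a promoter window for 4 of the 6 genes, all of the Scgb2b class. The 250 bases before the annotated start, on the minus strand, are chr7:33056553-33056802 for Scgb2b17, chr7:31705755-31706004 for Scgb2b7, chr7:31403179-31403428 for Scgb2b4-ps and chr7:34013943-34014192 for Scgb2b27. Capitals mark the run TGTTTGTTCTTCAGA, the longest run around the hexamer TGTTCT common to the 3 windows that hold that hexamer.
Scgb2b17: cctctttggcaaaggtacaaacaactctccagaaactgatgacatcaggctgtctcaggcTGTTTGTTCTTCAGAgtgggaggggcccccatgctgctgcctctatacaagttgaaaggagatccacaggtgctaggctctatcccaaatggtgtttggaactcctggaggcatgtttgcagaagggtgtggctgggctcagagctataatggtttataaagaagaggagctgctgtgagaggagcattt
Scgb2b7: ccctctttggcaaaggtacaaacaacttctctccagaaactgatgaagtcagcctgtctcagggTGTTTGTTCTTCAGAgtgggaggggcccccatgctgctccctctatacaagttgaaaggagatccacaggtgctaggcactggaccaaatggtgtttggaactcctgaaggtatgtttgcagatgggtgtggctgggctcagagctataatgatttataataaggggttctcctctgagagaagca
Scgb2b4-ps: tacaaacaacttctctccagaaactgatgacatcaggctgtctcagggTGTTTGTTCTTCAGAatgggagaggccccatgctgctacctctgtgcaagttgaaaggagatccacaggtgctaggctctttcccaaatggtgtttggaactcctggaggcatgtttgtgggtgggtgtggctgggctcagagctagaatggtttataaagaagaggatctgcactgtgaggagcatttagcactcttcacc
Scgb2b27: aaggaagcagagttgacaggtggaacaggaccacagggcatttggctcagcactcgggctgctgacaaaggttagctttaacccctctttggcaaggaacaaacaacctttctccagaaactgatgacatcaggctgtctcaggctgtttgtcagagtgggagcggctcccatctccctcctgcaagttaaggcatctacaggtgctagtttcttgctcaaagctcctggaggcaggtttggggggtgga

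Over the full 300-base windows, which run on for 50 bases past the start, the Scgb2b17, Scgb2b7 and Scgb2b4-ps windows were 90.8% to 93.3% identical to each other in aligned bases. The Scgb2b27 window, which begins further from the coding sequence, was 81.0% to 85.4% identical to them over 201 to 216 aligned bases. The run TGTTTGTTCTTCAGA stands 182 to 198 bases before the start in 3 of the 4 windows, counted to the TGTTCT within it, and is not in the Scgb2b27 window. It was found from these windows and then searched on both strands. It occurs in 13 of 20 Scgb2b windows of the cluster, in 0 of 9 Scgb1b windows and in 13 of the 32851 windows of the whole table (0.0396%), so in no window outside the Scgb2b genes. It contains the hexamer TGTTCT, which is the core of the response element of the androgen and glucocorticoid receptors and is common, since 19.0% of all windows hold it on either strand. By itself TGTTCT was, on either strand, in 16 of 20 Scgb2b and 3 of 9 Scgb1b windows. The TATA box letters TATAAA, also counted on either strand, were in 17 of 20 Scgb2b windows and in 13.6% of all windows. All 4 windows shown held them over their 300 bases, read on one strand or the other. The forkhead letters TGTTTAC, counted in the same way, were in 0 of 20 and in 3.65% of all.

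The coding sequences show how alike the members of a class are, which bears on how far a value can be assigned to a single gene. The coding part of the first coding exon is shown for the 3 coding beta-gamma genes, from GENCODE M21 (GRCm38), at chr7:31705678-31705738 for Scgb2b7, chr7:33056482-33056539 for Scgb2b17 and chr7:34013806-34013866 for Scgb2b27. The stretches are read from the minus strand. Capitals mark bases that differ from Scgb2b7.
Scgb2b7: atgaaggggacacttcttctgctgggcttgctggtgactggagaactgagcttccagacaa
Scgb2b17: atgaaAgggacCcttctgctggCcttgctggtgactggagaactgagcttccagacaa
Scgb2b27: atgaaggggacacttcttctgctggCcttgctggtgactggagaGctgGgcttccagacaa

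In this exon Scgb2b27 differs from Scgb2b7 at 3 of 61 bases, and Scgb2b17 differs at 3 and is 3 bases shorter. Over whole transcripts Scgb1b20 and Scgb1b7 were 98.8% identical across 418 aligned bases, and Scgb2b17 and Scgb2b7 91.9% across 430. Scgb2b27 was the most distant coding member of its class, with 79.7% identity to Scgb2b17 and 78.4% to Scgb2b7. Every listed gene had a closer copy among the models that were not listed. Scgb2b17 was 100% identical to Scgb2b15 across 434 aligned bases, and Scgb2b7 98.7% to Scgb2b20 across 520. Scgb1b7 was 100% and Scgb1b20 98.9% identical to Scgb1b29, each across 282. The closest copies of Scgb2b4-ps and Scgb2b27 were Scgb2b28-ps at 93.8% and Scgb2b26 at 83.4%.

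Transcript windows of fixed length were compared with every annotated transcript to measure this overlap. Of the 100-base windows of Scgb2b17, 531 of 549 (96.7%) also occur in another gene, and 480 of them occur in Scgb2b15, a coding gene of the cluster that was not listed. The shares were 57.2% for Scgb1b7, 41.6% for Scgb1b20 and 21.9% for Scgb2b7, whose shared windows all occur in Scgb2b20. None of the 758 windows of Scgb2b27 and none of the 241 of Scgb2b4-ps occur elsewhere. With 50-base windows the shares were 100% for Scgb2b17, 77.3% for Scgb1b7, 57.5% for Scgb1b20, 55.8% for Scgb2b7, 18.9% for Scgb2b4-ps and 3.96% for Scgb2b27. At both lengths every gene that shared a window was a secretoglobin. How the authors' counting divided fragments among copies, and the read length, are unstated in the labels. The values named Scgb2b17, Scgb1b7, Scgb1b20 and Scgb2b7 may therefore hold fragments of their copies. By exact matches, those named Scgb2b27 and Scgb2b4-ps are the ones least open to it. Matches with differing bases were not counted, and Scgb2b4-ps was 93.8% identical to Scgb2b28-ps across 337 aligned bases.

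**Figure D2:**
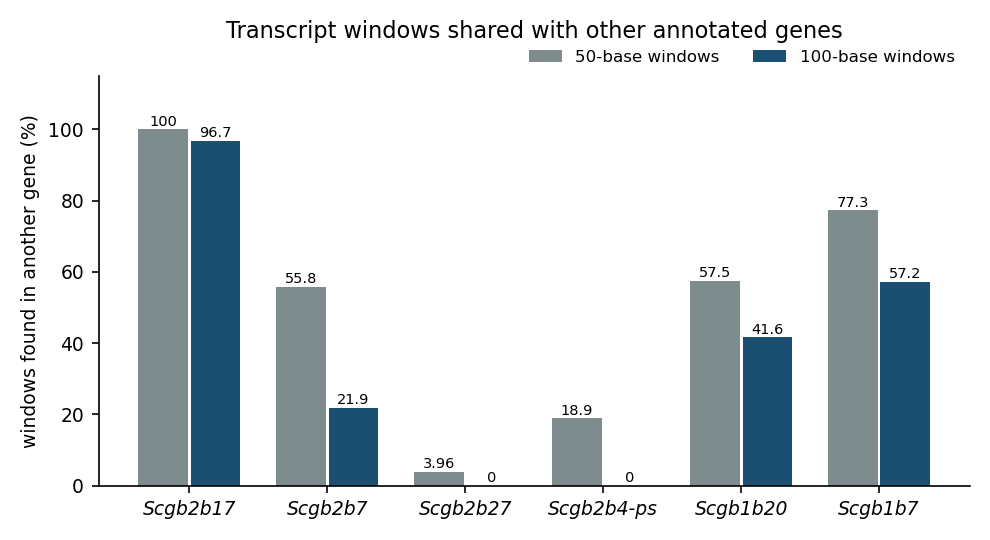
Share of the transcript windows of each secretoglobin gene that also occur in a transcript of another gene, in percent, for windows of 50 bases (grey) and 100 bases (blue). Scgb2b17 stands at 100% and 96.7%, and Scgb2b27 and Scgb2b4-ps have no shared window of 100 bases.

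Among the beta-gamma genes, Scgb2b17 had the highest level in every library. It stood at 106, 69.2 and 77.2 FPKM in control libraries 1 to 3 and at 38.9, 21.1 and 7.43 FPKM in knockout libraries 1 to 3. Every control library was above every knockout library, with the lowest control value 1.78 times the highest knockout value. The group means were 84.3 ± 19.6 and 22.5 ± 15.8 FPKM, a ratio of 3.75. This ratio was 5.90 without knockout replicate 1 and 2.81 without knockout replicate 3.

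Scgb2b27, the gene with the fewest shared windows, was also lower. Its values were 23.6, 13.2 and 17.4 FPKM in control and 2.58, 7.43 and 0.575 FPKM in knockout libraries. The groups did not overlap, and here it was knockout library 2, not library 1, that was highest among the knockout libraries. The means were 18.1 ± 5.23 and 3.53 ± 3.53 FPKM, a ratio of 5.12. This ratio was 11.4 without knockout replicate 2 and 3.61 without knockout replicate 3.

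Scgb2b7 varied more among the controls. It stood at 47.9, 18.8 and 8.50 FPKM in control and at 4.51, 1.09 and 0.222 FPKM in knockout libraries. The groups did not overlap, but the range within each group was wide, with control library 1 at 5.63 times control library 3 and knockout library 1 at 20.3 times knockout library 3. The means were 25.1 ± 20.4 and 1.94 ± 2.26 FPKM, a ratio of 12.9. This ratio was 7.05 without control replicate 1 and 38.1 without knockout replicate 1.

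The pseudogene Scgb2b4-ps was listed at 5.90, 2.48 and 2.39 FPKM in control libraries and at 0 in all 3 knockout libraries, so no ratio is given. It was the only gene of the 632 listed at 0 in every knockout library. Of the listed genes 16 had a 0 in at least 1 library, of which 3 were secretoglobin genes and 11 immunoglobulin segments, and 9 genes were at 0 in every control library. The depth is unknown, so the level that a listed 0 stands for cannot be given.

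**Figure D3:**
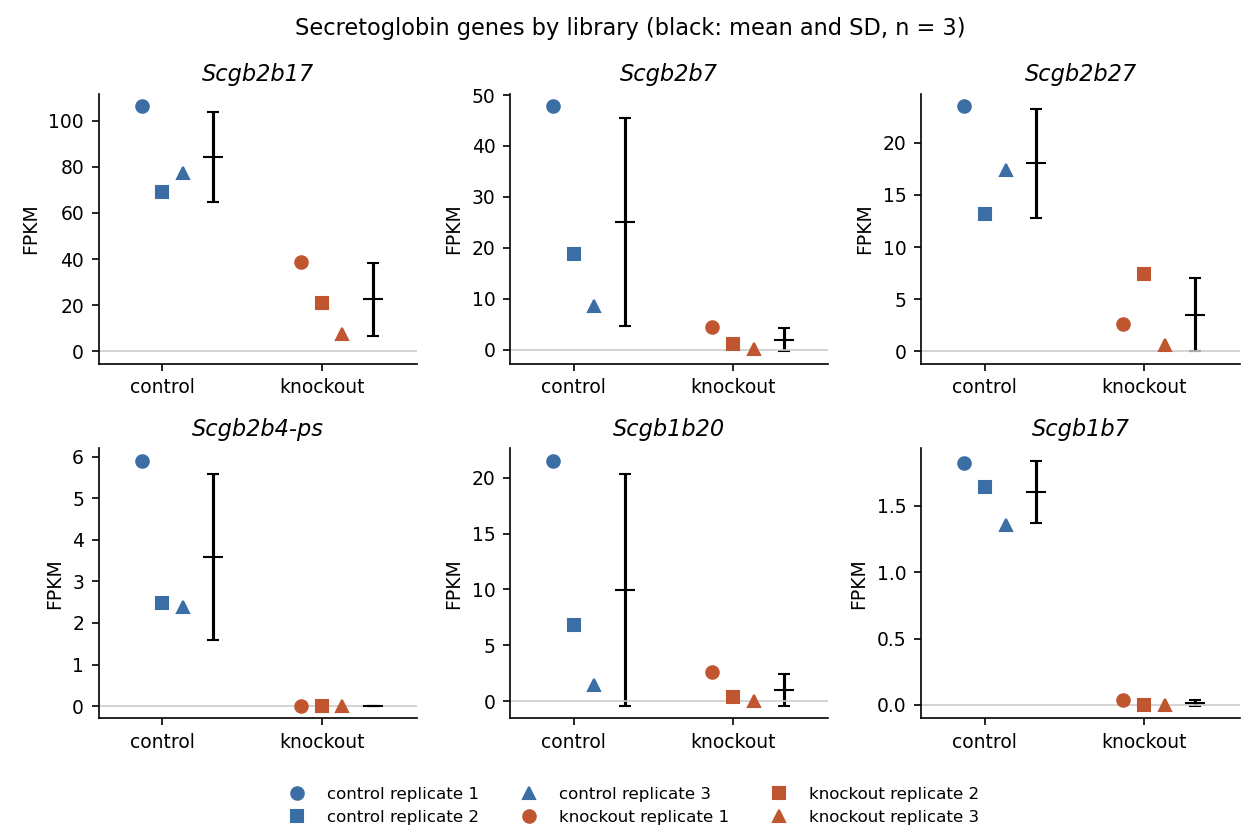
FPKM of each secretoglobin gene in every library, on linear axes that differ between panels. Circles, squares and triangles are replicates 1, 2 and 3 of the control (blue) and knockout (orange) groups, and the black bars are the mean and SD (n = 3). Control replicate 1 is the highest point in all 6 panels, and only in Scgb1b20 do the groups overlap.

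The alpha genes had lower mean levels than the coding beta-gamma genes. Scgb1b20 stood at 21.5, 6.85 and 1.46 FPKM in control and at 2.61, 0.340 and 0 FPKM in knockout libraries. It was the single member whose groups overlapped, because knockout library 1 was above control library 3. Its control values spanned 14.8-fold, the widest control range among the 6 genes. The means were 9.94 ± 10.4 and 0.984 ± 1.42 FPKM, a ratio of 10.1. The ratio was 4.22 without control replicate 1 and 58.6 without knockout replicate 1, and the groups did not overlap without control replicate 3 or without knockout replicate 1.

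Scgb1b7 showed the opposite pattern among controls, where it was low and even. It stood at 1.82, 1.64 and 1.35 FPKM in control libraries, a range of 1.34-fold and the narrowest of the 6 genes. In the knockout it was at 0.0384 FPKM in library 1 and was listed at 0 in libraries 2 and 3. The lowest control value was 35.2 times the only knockout value above 0. The paired genes Scgb2b7 and Scgb1b7 therefore did not keep a fixed ratio among controls, where Scgb2b7 was 26.3, 11.5 and 6.28 times Scgb1b7 in libraries 1, 2 and 3. Scgb2b7 and Scgb1b20, which are not paired, stood at ratios of 2.22, 2.75 and 5.84 in the same libraries. Scgb1b7, Scgb1b20 and Scgb2b7 share windows with copies, and the division of fragments among copies is unstated. These patterns therefore describe the listed values and may not be those of the single genes.

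The order of mean levels in control was Scgb2b17, Scgb2b7, Scgb2b27, Scgb1b20, Scgb2b4-ps and Scgb1b7. Scgb2b17 was above Scgb2b7, and Scgb2b4-ps above Scgb1b7, without overlap of their 3 control values. The neighbours Scgb2b7 and Scgb2b27, Scgb2b27 and Scgb1b20, and Scgb1b20 and Scgb2b4-ps had control ranges that overlapped and do not differ beyond their spread, although Scgb2b27 was above Scgb1b20 within each of the 3 control libraries. In knockout the order was Scgb2b17, Scgb2b27, Scgb2b7, Scgb1b20, Scgb1b7 and Scgb2b4-ps, and all neighbours overlapped, although Scgb2b17 was above Scgb2b27, and Scgb2b7 above Scgb1b20, within each of the 3 libraries.

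The make-up of the summed level also differed between libraries. Scgb2b17 made up 51.4%, 61.7% and 71.2% of the sum in control libraries 1, 2 and 3, and 80.0%, 70.4% and 90.3% in knockout libraries 1, 2 and 3. Control library 3 lay just above knockout library 2, so these shares overlapped. The Scgb2b genes together made up 92.9% ± 4.35 of the sum in control and 97.8% ± 2.88 in knockout libraries, which also overlapped. The summed alpha level was 23.3, 8.49 and 2.81 FPKM in control and 2.65, 0.340 and 0 FPKM in knockout libraries. The lowest control sum of the alpha genes was close to the highest knockout sum, whereas the beta-gamma sums, 104 to 184 FPKM in control and 8.22 to 46.0 FPKM in knockout, were well apart.

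**Figure D4:**
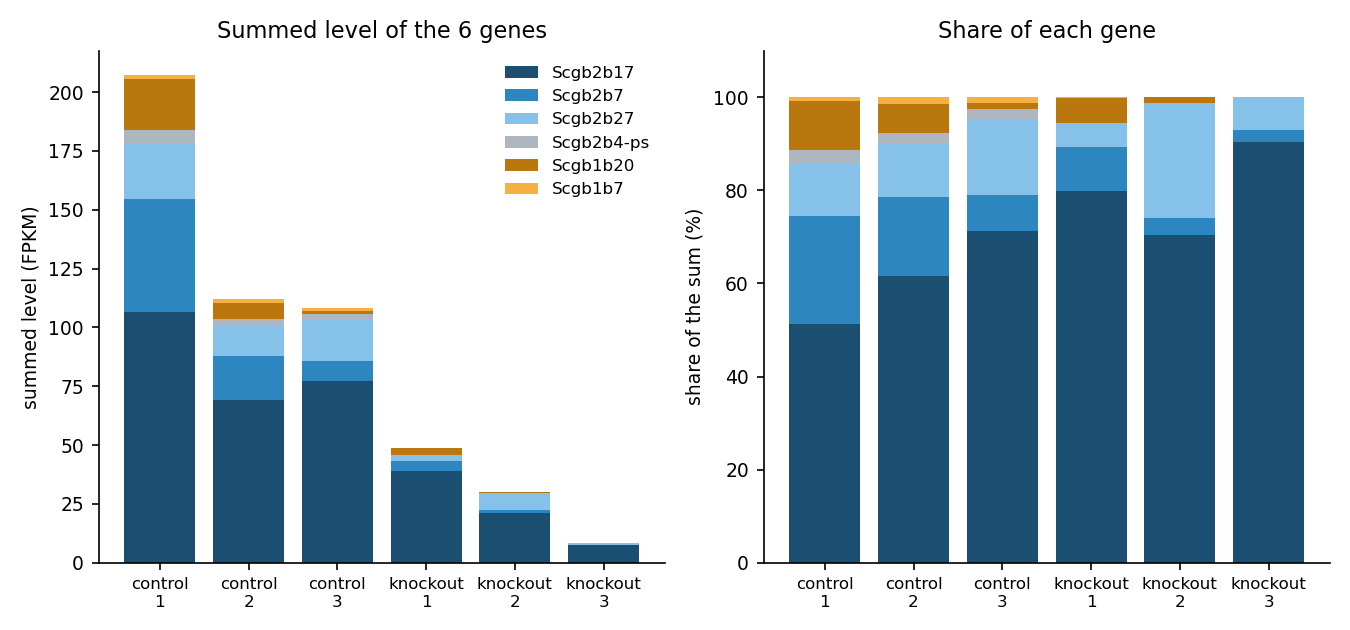
Left, summed FPKM of the 6 secretoglobin genes in each library, stacked by gene. Right, the share of each gene in that sum, in percent, where Scgb2b17 makes up 51.4% in control replicate 1 and 90.3% in knockout replicate 3.

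Single libraries stood apart in the same way for most of the genes. Control library 1 had the highest value of all libraries for 6 of 6 genes, and knockout library 3 had the lowest, or shared the lowest at 0, for 6 of 6. Knockout library 1 was the highest of the knockout libraries, or the only one above 0, in Scgb2b17, Scgb2b7, Scgb1b20 and Scgb1b7. The labels do not tie libraries to individual animals, and this spread may be technical in part.

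Against the other listed genes, the secretoglobins were few, and each had a mean at least 2-fold lower in knockout. The median ratio of control to knockout was 10.1 over the 5 secretoglobin genes with a finite ratio and 1.34 over all 181 listed genes that were lower in knockout and had one. The 181 include these 5. The secretoglobins were chosen from a list selected on this contrast, so nothing is read from their larger median. The secretoglobin median is the ratio of Scgb1b20, whose groups overlapped, and it depends on single libraries. It was 4.34 without control replicate 1, 6.73 without knockout replicate 3 and 38.1 without knockout replicate 1, while that of the 181 genes stayed between 1.25 and 1.38 with any 1 library left out. Of the 12 listed genes that were at least 2-fold lower without overlap, 5 (41.7%) were secretoglobins. They are 83.3% of the 6 members, and 1.9% of all listed genes showed this pattern. As with the medians, the choice of the members leaves nothing to read from these shares. The ratios of the other 7 genes ran from 2.11 to 16.4, so secretoglobins were not the only genes with a large ratio. The highest were those of G6pc2 (16.4), a gene of the glucose-6-phosphatase catalytic subunit family, and Rpl36-ps10 (6.11), both chosen here after their values were seen. G6pc2 was low throughout, with means of 1.08 FPKM in control and 0.0657 FPKM in knockout libraries. The 7 also included Wfdc3 and Sbpl, described next.

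**Figure D5:**
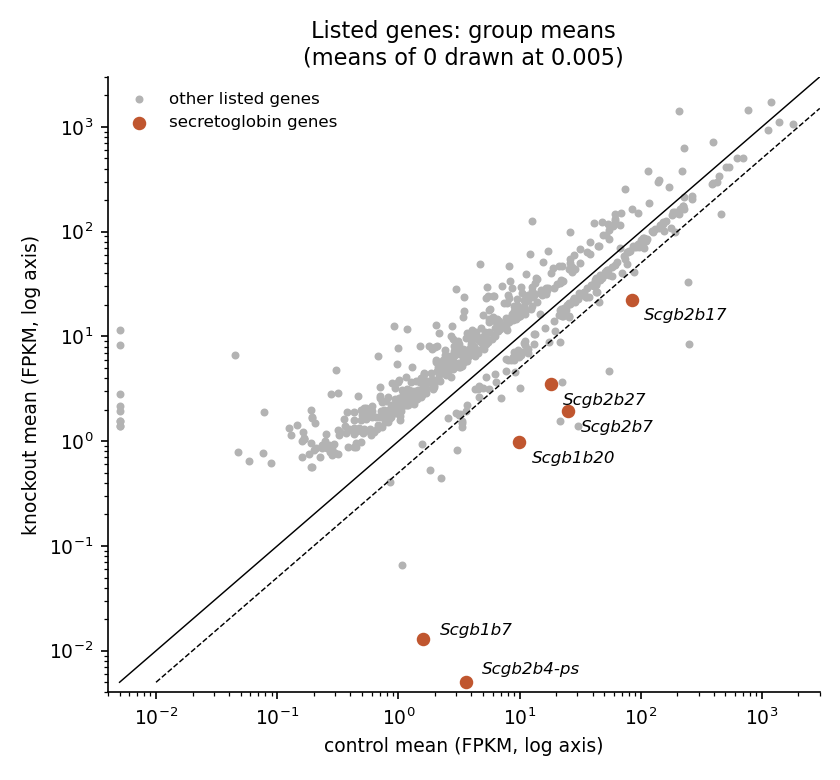
Mean FPKM of the 632 listed genes in control (x axis) and knockout (y axis), both axes logarithmic, with the solid line at equal levels, the dashed line at 2-fold lower in knockout and means of 0 drawn at 0.005 FPKM. The 6 secretoglobin genes (orange) all lie below the dashed line.

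Of 31 genes on a list of prostate secretory products 4 were listed, and all 4 were lower in knockout without overlap of the groups. Of all listed genes 15.7% showed that pattern. The table had been selected on this contrast and the list was chosen with earlier results of these data known, so nothing is read from this count. Wfdc3, of the whey acidic protein family of protease inhibitors, was at 564, 464 and 345 FPKM in control and at 137, 166 and 137 FPKM in knockout libraries. Sbpl, a relative of the spermine-binding protein, was at 99.1, 58.7 and 105 FPKM in control and at 53.4, 50.4 and 19.7 FPKM in knockout libraries. As with the secretoglobins, knockout library 3 was the lowest for Sbpl, while for Wfdc3 knockout libraries 1 and 3 were nearly equal. Azgp1, a secreted glycoprotein gene, and Fgl1, a fibrinogen-like secreted protein gene, were 1.35 and 1.30 times higher in control. The summed level of these 4 genes was 1245 to 1594 FPKM in control and 801 to 833 FPKM in knockout libraries, a narrower range among knockout libraries than that of the secretoglobin sum. Of 22 androgen response genes 2 were listed, Steap4 and Psca, and both were higher in knockout. So were most listed genes, since 28.8% of the list had a lower mean in knockout, and nothing is read from their direction. None of 17 genes of secretory protein export was listed.

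By a rule on likeness of pattern, the 5 named genes closest to the secretoglobin sum across the 6 libraries were Dcxr, Adi1, Mcoln2, Fam222a and Gpr83. The measure was Pearson's r of log2(FPKM + 1) with the log2 of the summed secretoglobin level + 1, and it was 0.997, 0.988, 0.974, 0.968 and 0.967. The points share the difference between groups on which all these genes were listed. Dcxr, a reductase of dicarbonyls and xylulose, was at 218, 190 and 191 FPKM in control and at 166, 157 and 129 FPKM in knockout libraries. Its order over libraries resembled that of the secretoglobin sum but its ratio of group means was 1.33. The ratios of the other 4, among them Adi1 of methionine salvage and the endolysosomal channel gene Mcoln2, were 1.32 to 1.79.

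Facts of the libraries as a whole bear on these values. The listed genes summed to 31468 to 36565 FPKM in each library, a figure that says nothing of depth, and no pair of libraries was identical. The titles of all control libraries end in L2 and those of all knockout libraries in L7, a suffix the labels do not explain, and its effect and that of the genotype cannot be told apart. Cdh1, the E-cadherin gene, was not listed, so the genotype could not be checked on it. None of 7 luminal prostate markers was listed, so the cells that would be the source of a secretory product could not be checked against them. Of 7 general epithelial markers the basal keratin genes Krt5, Krt14 and Krt15 were listed, with sums of 81.9 to 111 FPKM in control and 157 to 189 FPKM in knockout libraries.

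Listed markers of other cells were mostly higher in the knockout libraries, as were most listed genes. Of the list, 28.8% had a lower mean in knockout. The median log2 ratio of knockout to control was 0.93 over the 622 listed genes with a finite ratio. Nothing is therefore read from the direction of these markers or of the basal keratin genes. Of 7 leukocyte markers 5 were listed, with summed levels of 178 to 244 FPKM in control and 425 to 434 FPKM in knockout libraries. Of 8 fibroblast and smooth muscle markers 2 were listed, Col1a1 and Col1a2, with sums of 46.0 to 62.7 and 76.1 to 81.8 FPKM. No listed marker of these lists was at 0 in any library. None of 8 seminal vesicle and none of 3 endothelial markers was listed. Of 10 salivary or lacrimal gland markers 1 was listed, Lpo, at 0.357 to 6.49 FPKM in control and 0.874 to 1.82 FPKM in knockout libraries, which overlapped. The part of these cells in the lower secretoglobin levels was not tested. In RNA from pooled sorted cells, fewer secretoglobin-producing cells and less secretoglobin RNA per cell cannot be told apart.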

How the data were processed

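Per the labels' protocols, prostates were digested with collagenase and trypsin, epithelial cells were sorted and total RNA was sequenced on an Illumina HiSeq instrument. The labels name both a bulk and a droplet library kit, and which was used is not settled by the table. Tools and build were TopHat2 2.0.14, Cuffdiff, Cufflinks 2.2.1 and GRCm38 per the submitters' processing notes, which give no roles. The deposited values were taken as FPKM made by the authors, which was inferred from these tools and the values, since the header names no unit. Their selection of genes, annotation and handling of fragments that match several genes were not stated by any source used here.

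The members and gene lists were chosen with earlier results of these data known. Group means, SDs, ratios of means with no pseudocount and overlap of groups were computed with Python 3.11.15, pandas 2.3.3 and numpy 2.4.6. No test was run on the contrast. All 632 identifiers matched GENCODE M21. Transcripts were aligned globally with Biopython 1.88, using the annotated transcript with the longest coding sequence, and identity was taken over aligned bases without gaps. Exon sequences of the Scgb1b genes are not reported here. Windows of 50 and 100 bases were taken from all transcripts of a gene but retained introns and sought in all M21 transcripts on both strands. Named genes were the 6 members, at most 4 genes of each list with the highest level, and the 5 listed genes most like the family in pattern, leaving out predicted genes. Depth is unknown and could not be worked out from the values. Among values under 0.5 FPKM, ratios between control libraries were compared with ratios of whole numbers up to 4. With the scale factor that gave the most matches for each pair of libraries, only 16.2% to 18.5% lay within 0.5% of one. Titles share no replicate numbers.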

Additional observations from a re-analysis of the deposited data

How the results depend on the processing

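Of 88 values recomputed under 12 alternative settings, 80 moved by less than the spread between libraries or, for counts, by no more than 1.5 times. The 62 log2 ratios among them were below 0, as on all libraries, including 6 under a centring that cannot turn them. The number of genes whose groups did not overlap was 5 to 6, and the number at least 2-fold lower was 6, with any 1 library left out, although leaving out a library can only keep or raise the first of these. The log2 ratio of the sum, -2.30 on all libraries, ranged from -2.90 to -1.86 in the same way. Centring on the median listed gene, a log2 shift of 0.93, gave -3.23 and 6 genes without overlap, since by construction it lowers every knockout value. The 8 values that moved further were the ratio of Scgb2b17 under that centring, of Scgb1b20 without knockout replicate 1, and of Scgb1b7 under 6 settings. For Scgb1b7 the log2 ratio was -6.97 with no pseudocount, -3.92 with 0.1 and -1.36 with 1, so the size of its difference is not fixed by these data beyond the values in each library. Without knockout replicate 1 no ratio could be formed for Scgb1b7, nor one without a pseudocount for Scgb2b4-ps under any setting. No paired analysis was possible because the labels give the groups no shared replicate numbers. The unknown depth limits most the genes listed at 0, and near-identical copies limit the naming of Scgb2b17, Scgb1b7, Scgb1b20 and Scgb2b7.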

Other observations

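Of the 26 listed genes that were at least 2-fold lower in knockout, 14 had groups that overlapped, and for 5 of these the highest library was at least 10 times the next. The highest such value was that of Arhgap27, chosen here after its values were seen, at 733 FPKM in control library 1 and between 5.72 and 8.95 FPKM in the other 5 libraries. None of the 5 was a secretoglobin gene. The ratio of means of such a gene comes from 1 library, whereas no secretoglobin gene had a library at 10 times the next.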
